A study of Caenorhabditis elegans with 6 samples.

Results

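The synaptotagmin family of Caenorhabditis elegans was followed in coelomocytes with and without the transcription factor CHE-1. Its members were taken by name, as the 7 genes snt-1 to snt-7 among the 21882 genes of the deposited raw table, and all 7 were found there. The rule reads names only, but the family was picked for description with earlier results of these data known, and so were the lists of other genes. Coelomocytes are scavenger cells of the body cavity that take up fluid by endocytosis, and CHE-1 is the zinc finger factor that specifies the ASE gustatory neurons. The WT_CC group (3 libraries) came from strain BAT2087, in which the transgene barIs177 places GFP under the coelomocyte promoter unc-122prom. The Repro_CC group (3 libraries) came from strain BAT2088, which carries the same reporter plus barIs115, a transgene with a che-1 cassette tagged with 2xFLAG under an unc-122 promoter and with an unc-54 3' UTR, together with myo-2prom::mCherry. Both strains also carry glp-4(bn2) I, a temperature-sensitive allele, and both groups were germline-less L3 larvae raised at 25°C after a shift from 15°C. GFP-positive cells were sorted from dissociated whole worms, so each library is a pool of cells from many animals, and each group rests on 1 strain.

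Synaptotagmins are vesicle membrane proteins with an N-terminal membrane anchor and a pair of cytoplasmic C2 domains. In the members that act as calcium sensors, the C2 domains bind calcium and acidic phospholipids and act together with SNARE proteins to trigger the fusion of a vesicle with the plasma membrane. In C. elegans, SNT-1 is the main sensor for fast transmitter release at synapses and SNT-3 is a further sensor for release. SNT-2 acts in the intestine, in the secretion of a neuropeptide that paces the defecation cycle. No role is given here for the products of the other genes.

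Library totals ran from 21353072 to 58325279 estimated counts, and the shallowest library of each group, WT_CC library 2 and Repro_CC library 1, held 7006 and 7566 genes above 0. The gene che-1 had 3, 0 and 1 counts in WT_CC and 10744, 50917 and 42227 in Repro_CC, in the direction that the labels give. The coelomocyte reporter source unc-122 was at 1668 ± 391 CPM in WT_CC and 1360 ± 187 CPM in Repro_CC (SD, n = 3 each; edgeR adjusted p = 0.741). Levels are TMM-scaled CPM, that is, counts scaled to the size of each library, and every fold change is Repro_CC over WT_CC. A gene was called where the adjusted p of edgeR's quasi-likelihood test over 9112 tested genes was under 0.05, and 5.06% of tested genes were called in either direction, 3.37% higher and 1.69% lower. Because nothing in the labels says that libraries came from separate cultures, these p-values measure only the spread between libraries, which may be technical.

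Of the 7 synaptotagmin genes, snt-4 and snt-1 rose in the coelomocytes with CHE-1, none fell, 4 did not pass the test and snt-5 was too sparse to be tested. The 2 higher calls among 6 tested genes stand beside 3.37% of all tested genes called higher. The median log2 fold change of the 6 tested members was 1.84, against 0.04 for all tested genes. The groups did not overlap for snt-1, snt-3 and snt-4, as was the case for 23.4% of all tested genes.

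**Figure D1:**
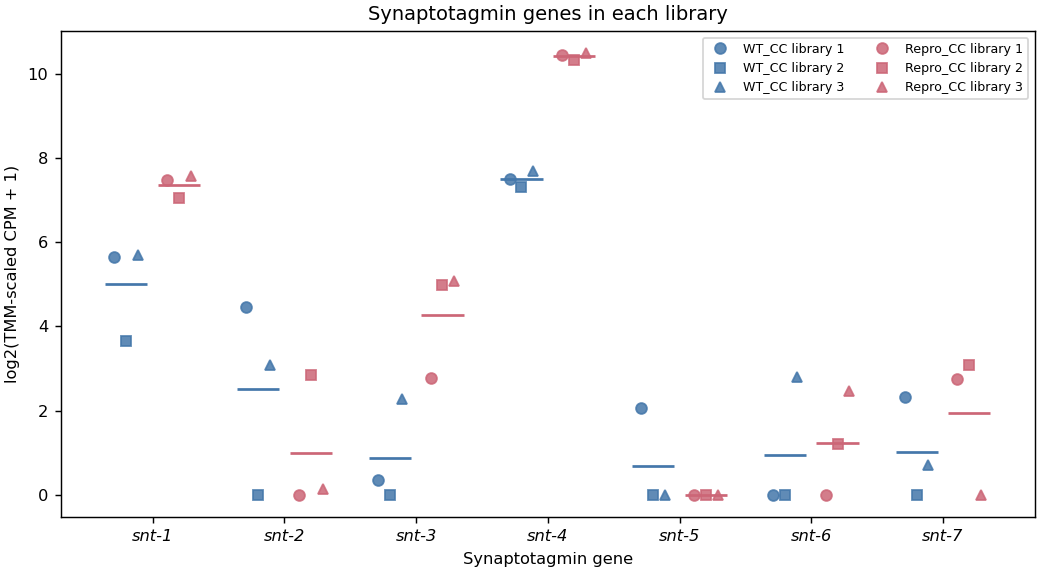
Level of each synaptotagmin gene in each library, as log2(TMM-scaled CPM + 1) on the vertical axis, with WT_CC in blue, Repro_CC in red, a marker shape per library and a line at the mean of the 3 plotted values. The Repro_CC points of snt-1, snt-3 and snt-4 lie above every WT_CC point, and the other genes lie near 0 in at least 1 library of each group.

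The most abundant member in every library was snt-4 (WBGene00004924, build WBcel235, chromosome I, 6436112 to 6441192, plus strand), a gene with a single annotated transcript of 8 exons. It had 9274, 3785 and 11059 counts in the WT_CC libraries, which are 182, 159 and 206 CPM. In the Repro_CC libraries it had 31083, 81772 and 75529 counts, which are 1408, 1299 and 1441 CPM. The lowest Repro_CC library was thus far above the highest WT_CC library, and the spread within either group was small against the difference between them. The gene rose 7.58-fold, from 182 ± 23.6 to 1383 ± 74.4 CPM (SD, n = 3 each; log2 fold change 2.92, SE 0.19, edgeR adjusted p = 7.40e-06). By p it stood at place 12 among the 307 genes called higher, and by fold at place 127. Per kb of exon, it was at place 655 of the tested genes in WT_CC and at place 134 in Repro_CC.

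The neuronal sensor gene snt-1 (WBGene00004921, chromosome II, 6810963 to 6816433, plus strand) was the second most abundant member. Its WT_CC libraries held 2502, 276 and 2718 counts, or 49.1, 11.6 and 50.6 CPM. Its Repro_CC libraries held 3895, 8312 and 10036 counts, or 176, 132 and 191 CPM. The shallow WT_CC library 2 was low against both other controls, while the Repro_CC libraries were alike. The gene rose 4.49-fold, from 37.1 ± 22.1 to 167 ± 30.9 CPM, a change of 2.17 ± 0.50 (SE) on the log2 scale (edgeR adjusted p = 0.0349). That call was close to the threshold. It was lost without WT_CC library 1 (adjusted p = 0.0902) or 3 (0.0633), and without Repro_CC library 1 (0.135), 2 (0.0751) or 3 (0.110), with log2 fold changes of 1.67 to 2.42 over the 6 fits that each omit 1 library. In those fits 4.43%, 4.83% and 4.17% of all genes were called without WT_CC library 1, 2 and 3, and 4.52%, 3.73% and 3.70% without Repro_CC library 1, 2 and 3. Without WT_CC library 2 the call held at an adjusted p of 0.00854.

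The release sensor gene snt-3 (WBGene00004923, chromosome V, 1358178 to 1371014, minus strand) was close to undetected in the controls. It had 14, 0 and 208 counts in WT_CC (0.275, 0 and 3.88 CPM) and 128, 1946 and 1728 counts in Repro_CC (5.80, 30.9 and 33.0 CPM). All 3 Repro_CC libraries were above all 3 WT_CC libraries, but the shallow Repro_CC library 1 was far below the other 2 libraries of its group. The log2 fold change of 4.06 (SE 1.80) did not pass the test (edgeR adjusted p = 0.331), for means of 1.38 ± 2.16 and 23.2 ± 15.1 CPM. The edgeR fit with adjusted deviances did call it higher (adjusted p = 0.00212), a fit that called 11.5% of genes, while DESeq2 (0.0782, with 11.1% of genes called) and limma-voom (0.0982, with 8.93% called) did not.

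The remaining members were seen in some libraries and absent from others within the same group. The intestinal sensor gene snt-2 (WBGene00004922, chromosome III, 786070 to 793733, minus strand) had 1068, 0 and 404 counts in WT_CC (20.97, 0 and 7.53 CPM) and 0, 388 and 5 counts in Repro_CC (0, 6.16 and 0.0954 CPM). The groups overlapped, and its log2 fold change of -2.18 (SE 2.79) did not pass (edgeR adjusted p = 0.998). The gene overlaps ppm-1.G on the opposite strand, and the libraries were strand-specific, but whether strand was used in counting is not stated, so reads of these neighbours may not be separated. Markers of other tissues varied between the same libraries. The summed CPM of 6 pharyngeal muscle markers was 519, 48.5 and 152 in WT_CC and 103.99, 109.7 and 28.5 in Repro_CC, and that of 9 intestinal markers was 239.7, 355 and 314 in WT_CC and 216, 970.5 and 688 in Repro_CC. Libraries 1 and 3 of WT_CC, which held snt-2, had the higher pharyngeal sums of that group but the lower intestinal sums. In Repro_CC, libraries 1 and 2 had 0 and 388 snt-2 counts at pharyngeal sums of 103.99 and 109.7 CPM. The part of either tissue in the snt-2 counts was not tested.

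The gene snt-7 (WBGene00011682, chromosome X, 15195883 to 15199152, minus strand) was at 3.99, 0 and 0.633 CPM in WT_CC and at 5.75, 7.51 and 0 CPM in Repro_CC. The gene snt-6 (WBGene00004926, chromosome II, 745418 to 750212, minus strand) was at 0, 0 and 5.96 CPM in WT_CC and at 0, 1.29 and 4.50 CPM in Repro_CC. Neither separated the groups, and neither passed the test, with log2 fold changes of 1.52 (SE 3.09, edgeR adjusted p = 0.998) and -0.04 (SE 3.39, edgeR adjusted p = 0.999). Standard errors of this size cannot tell a large rise from a large fall. The gene snt-5 (WBGene00004925, chromosome V, 1393112 to 1411559, minus strand) had 163 counts in WT_CC library 1, or 3.20 CPM, and 0 in the other 5 libraries. A count of 0 allows up to 3 counts, which are 0.0514 to 0.140 CPM before TMM scaling at these depths, for counting error only. It lies 22.1 kb from snt-3 on the same strand, and the 2 neighbours differed in that snt-3 had counts in every Repro_CC library and snt-5 in none.

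The use of the paralogs was compared per kb of exon, since longer genes collect more reads. In WT_CC the level of snt-4 was 123 ± 15.97 CPM per kb and that of snt-1 was 19.3 ± 11.5 CPM per kb, with no overlap between their libraries. Next, snt-2 was at 4.82 ± 5.40 CPM per kb and overlapped snt-1 in range, though it was below it in each of the 3 libraries. The 4 genes that followed had means of 0.629 to 1.25 CPM per kb, and each overlapped its neighbour in the order. In Repro_CC the order was snt-4 at 934 ± 50.2, snt-1 at 86.6 ± 16.1 and snt-3 at 16.7 ± 10.9 CPM per kb, and the libraries of snt-4 did not overlap those of snt-1, nor those of snt-1 those of snt-3. Of the genes that followed, snt-3 was above snt-7, at 3.14 ± 2.79 CPM per kb, in each of the 3 libraries, although their ranges overlapped. The genes snt-7, snt-6 and snt-2 could not be ordered beyond their spread, and snt-5 was at 0.

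**Figure D2:**
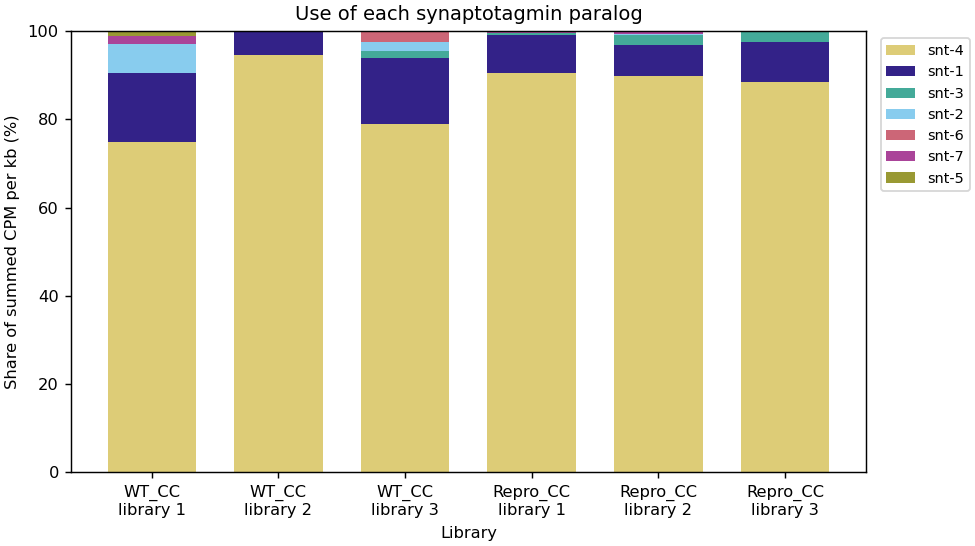
Share of each synaptotagmin gene in the family's summed CPM per kb of exon, in percent, for the 3 WT_CC and 3 Repro_CC libraries, stacked to the whole. The gene snt-4 held 75.0% to 94.7% in WT_CC and 88.5% to 90.5% in Repro_CC, and snt-1 held most of the rest.

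The summed level of the family was 6.73 times as high in Repro_CC, at 1581 ± 97.4 CPM against 234.9 ± 56.4 CPM in WT_CC. Most of this was snt-4. Without it, the sum of the other genes was 198 ± 27.05 CPM in Repro_CC and 52.6 ± 35.8 CPM in WT_CC, a ratio of 3.77. Without snt-1 as well, it was 31.7 ± 17.9 and 15.5 ± 14.4 CPM, which overlapped between groups.

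The division of the family between paralogs did not pass a test of difference, and 1 control library stood apart from the other 2. The share of snt-4 was 75.0%, 94.7% and 79.0% in the WT_CC libraries and 90.5%, 89.8% and 88.5% in the Repro_CC libraries, so the Repro_CC libraries lay below WT_CC library 2, the shallowest control, and above the other 2 controls. As means these were 82.9% ± 10.4 and 89.6% ± 0.988 (exact two-sided permutation test, p = 0.40, and 0.70 after Benjamini-Hochberg adjustment over the 7 genes). The difference of 6.73 percentage points was 12.6 without WT_CC library 2 and 2.78 without WT_CC library 1. The share of snt-1 was 11.9% ± 5.74 in WT_CC and 8.26% ± 1.09 in Repro_CC (exact permutation p = 0.40), a difference of -3.67 percentage points that was -6.98 without WT_CC library 2, -1.85 without library 1 and -2.17 without library 3. That of snt-3 was 0.566% ± 0.878 and 1.61% ± 1.05 (exact permutation p = 0.20). With 3 libraries against 3 this test cannot go below 0.10, so a shift in paralog use was not detectable here, and an equal use is not shown. As a share of counts without regard to length, snt-4 held 70.1% of the family in WT_CC library 1 (95% Wilson interval 69.3% to 70.9%) and 93.2% in WT_CC library 2 (92.4% to 93.9%), so the spread among controls exceeded counting error.

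The ratio of snt-4 to snt-1, a quantity chosen after the values were seen, gives the same picture on a log scale. Per kb of exon it was 2.27, 4.15 and 2.40 as log2 in WT_CC and 3.38, 3.68 and 3.29 in Repro_CC, which overlapped (exact permutation p = 0.40, and 0.40 after adjustment over 2 ratios). For both ratios 1 count was added to each gene. The log2 ratio of snt-3 to snt-1 was -6.92 and -3.23 in WT_CC libraries 1 and 3 and -4.45, -1.63 and -2.07 in Repro_CC, which overlapped. No value is given for WT_CC library 2, where snt-3 had 0 counts.

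**Figure D3:**
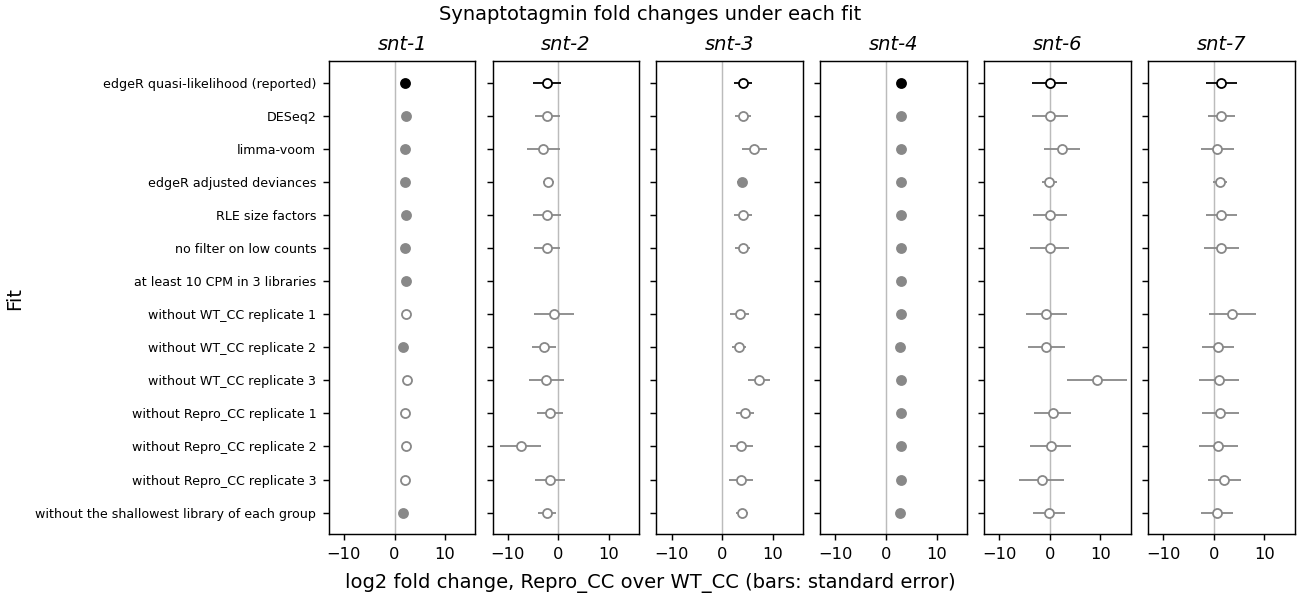
Log2 fold change, Repro_CC over WT_CC, of the 6 tested synaptotagmin genes on the horizontal axis under the reported fit (black) and up to 13 alternatives (grey), with bars for the standard error and filled points where the adjusted p was under 0.05. The points of snt-4 lie between 2.76 and 2.99 and are all filled, those of snt-1 lie between 1.63 and 2.42 with 5 alternatives unfilled, and snt-6 falls on both sides of 0.

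Across the 6 libraries, the 3 genes with the profile most like that of snt-4, by Pearson r of log2(CPM + 1) among 5731 or 5732 other tested genes with a mean of at least 10 CPM, were unc-63 (r = 0.999), which encodes a nicotinic acetylcholine receptor subunit, T02E1.8 (0.999) and the globin gene glb-32 (0.999). For snt-1 they were F32B5.7 (0.998), the adenylyl cyclase gene acy-1 (0.996) and Y105E8A.1 (0.994). For snt-3 they were elli-1 (0.991), yop-1 (0.991) and C15H9.4 (0.990). The 6 points share 2 groups and each library its depth, so a gene that differs between the groups has a high r with every other such gene. The gene unc-63 was at 27.2, 22.9 and 34.4 CPM in WT_CC and at 215, 203 and 210.5 CPM in Repro_CC, and acy-1 at 22.9, 6.96 and 26.3 against 56.96, 48.5 and 72.2 CPM. Like snt-1, acy-1 was lowest in WT_CC library 2. The sparse members had as their nearest genes tbc-20, rpl-34 and ddx-10 for snt-2 (r from 0.982 to 0.991), ndub-8, rpn-1 and rpn-9 for snt-6 (0.965 to 0.979), and ZK484.3, pfn-3 and Y47D7A.13 for snt-7 (0.962 to 0.972).

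Of 16 genes for neuronal SNAREs and fusion factors, 6 rose, 0 fell and 10 did not pass, with a median log2 fold change of 0.74. Over all tested genes, 3.37% were called higher and 1.69% lower. The SNAP-25 homologue ric-4, a plasma membrane SNARE, rose from 16.4 ± 3.60 to 845 ± 64.4 CPM, a change of 5.69 ± 0.26 (SE) on the log2 scale (edgeR adjusted p = 4.17e-07). The rabphilin gene rbf-1, itself a C2 domain protein that binds RAB-3, rose from 14.8 ± 6.06 to 196 ± 16.5 CPM (3.74, SE 0.35, adjusted p = 8.43e-05). The vesicle GTPase gene rab-3 rose from 6.90 ± 4.93 to 264 ± 43.4 CPM (adjusted p = 0.000219), and unc-13, whose product primes vesicles for fusion, from 104.2 ± 30.0 to 315 ± 87.4 CPM (adjusted p = 0.00865). The other 2 higher genes were unc-10, which encodes the active zone protein RIM, and aex-3, an exchange factor for RAB-3.

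The partners of SNAP-25 in the fusion complex were already present without CHE-1. The synaptobrevin gene snb-1 was at 173 ± 30.6 CPM in WT_CC and 213 ± 41.7 CPM in Repro_CC (edgeR adjusted p = 0.855), and the syntaxin gene unc-64 at 146 ± 21.8 and 191 ± 49.9 CPM (adjusted p = 0.708). Tomosyn, an inhibitor of priming encoded by tom-1, was at 169 ± 24.1 and 272 ± 28.8 CPM (adjusted p = 0.123). The complexin genes, whose products clamp and assist the same fusion complex, did not pass either, cpx-1 at 12.3 ± 14.0 against 17.1 ± 2.84 CPM and cpx-2 at 92.0 ± 28.97 against 58.0 ± 32.5 CPM.

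**Figure D4:**
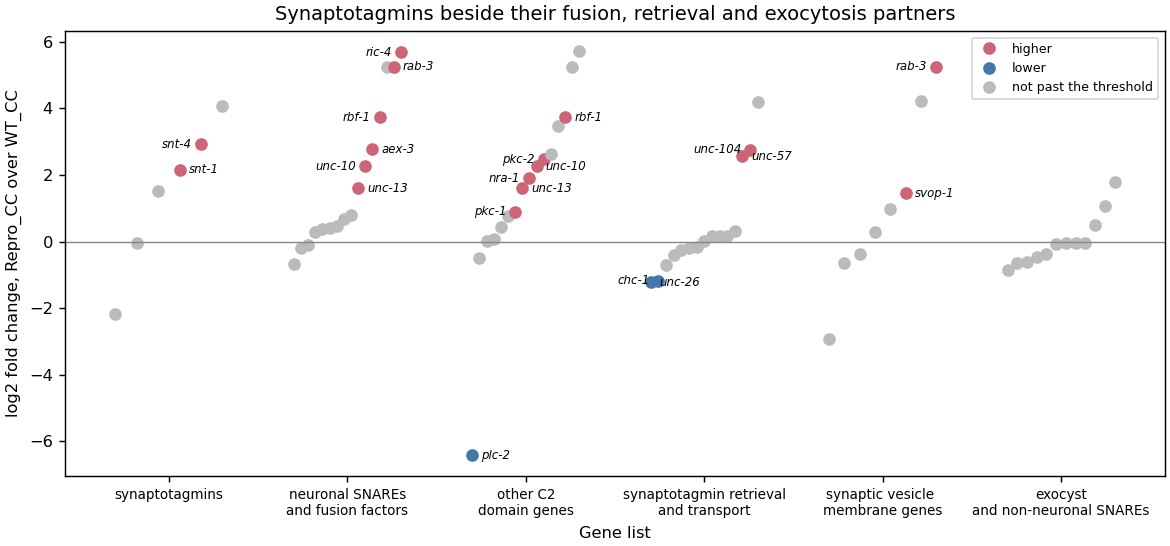
Log2 fold change, Repro_CC over WT_CC, on the vertical axis for each tested gene of the synaptotagmin family and of 5 lists of related genes, ordered within a list, with genes called higher in red, lower in blue and others in grey. Grey points can lie above red ones where libraries of a group differ widely, as for snt-3, and the exocyst list has no coloured point.

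Other genes with C2 domains moved in both directions. Of 16 such genes, 6 rose, 1 fell and 9 did not pass, with a median log2 fold change of 1.75. The shares over all tested genes were 3.37% higher and 1.69% lower. The list shares unc-13, unc-10, unc-31 and rbf-1 with the fusion factors, so the lists are not independent. The conventional protein kinase C gene pkc-2 rose from 17.9 ± 10.6 to 99.4 ± 35.0 CPM, a change of 2.47 ± 0.53 (SE) on the log2 scale (edgeR adjusted p = 0.0179), and unc-10 from 15.7 ± 9.11 to 75.8 ± 31.4 CPM (adjusted p = 0.0328). The kinase gene pkc-1 and the copine gene nra-1 were also called higher (adjusted p = 0.0468 and 0.0345). In the other direction, the phospholipase C gene plc-2 fell from 107 ± 31.6 to 1.26 ± 0.927 CPM, a change of -6.42 ± 0.81 (SE) on the log2 scale (adjusted p = 0.00113). The count of 7 called genes dropped to 4 without WT_CC library 3 or without Repro_CC library 2. The phospholipase gene egl-8 was at 452 ± 49.7 and 481 ± 60.4 CPM (edgeR adjusted p = 0.998), and gap-2, a Ras GTPase activator, at 64.9 ± 29.2 and 111 ± 6.08 CPM (adjusted p = 0.364). The extended synaptotagmin gene esyt-2, whose product tethers membranes rather than fusing vesicles, was at 55.4 ± 5.88 and 75.0 ± 19.3 CPM (adjusted p = 0.780). Not passing does not mean unchanged. Of the 16 genes, 11 did not overlap between groups, beside 23.4% of all tested genes. Among these, syd-1 (2.19 and 117 CPM), unc-31 (3.23 and 125 CPM) and plc-3 (2.80 and 31.2 CPM) did not pass (edgeR adjusted p = 0.0944, 0.144 and 0.0663).

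Genes that carry synaptic vesicle proteins to the terminal, or retrieve synaptotagmin after fusion, moved in both directions. Of 15 tested, 2 rose, 2 fell and 11 did not pass, with a median log2 fold change of 0.02. These counts stand beside 3.37% of all tested genes called higher and 1.69% called lower. The endophilin gene unc-57 rose from 136 ± 11.9 to 809.8 ± 201 CPM, a change of 2.57 ± 0.23 (SE) on the log2 scale (edgeR adjusted p = 6.32e-05), and the vesicle kinesin gene unc-104 from 14.5 ± 5.91 to 97.9 ± 36.0 CPM (adjusted p = 0.00338). A fall was called for chc-1, which encodes the clathrin heavy chain, at 6034 ± 375 and 2673 ± 313 CPM (adjusted p = 0.000866), and for the synaptojanin gene unc-26, whose product works with endophilin, at 870.4 ± 47.7 and 372 ± 66.1 CPM (adjusted p = 0.00337). The most abundant genes of the list that did not pass were the kinesin gene unc-116, at 1032 ± 111.5 and 1163 ± 46.8 CPM (adjusted p = 0.922), and the dynamin gene dyn-1, at 638.5 ± 47.1 and 542 ± 70.9 CPM (adjusted p = 0.818). The stonin gene unc-41, the adaptor for synaptotagmin itself, was at 2.36 ± 2.64 and 43.7 ± 3.35 CPM and did not pass (log2 fold change 4.21, SE 1.44, adjusted p = 0.203).

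Of the 12 genes for synaptic vesicle membrane proteins, 11 were found by name and 8 were tested. Of these, 2 rose, 0 fell and 6 did not pass, with a median log2 fold change of 0.63, beside 3.37% higher and 1.69% lower over all tested genes. Beside rab-3, the transporter-like vesicle gene svop-1 rose from 46.9 ± 9.56 to 128 ± 11.6 CPM, a change of 1.45 ± 0.29 (SE) on the log2 scale (edgeR adjusted p = 0.0118), and without WT_CC library 3 only 1 gene of this list was called. The SCAMP gene scm-1 was at 389 ± 44.2 and 249 ± 41.6 CPM (adjusted p = 0.144). Of the 17 genes for the exocyst and for SNAREs outside the synapse, edgeR called 0 of the 12 tested, with 1 at an unadjusted p under 0.05. For this list DESeq2 called 0 and limma-voom called 1 lower. Over all genes in either direction, edgeR called 5.06%, DESeq2 11.1% and limma-voom 8.93%. The exocyst genes exoc-7 and exoc-8 were at 102 ± 13.3 against 56.8 ± 20.6 CPM and at 85.5 ± 33.0 against 55.3 ± 2.73 CPM (adjusted p = 0.262 and 0.555).

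Markers of neurons and of coelomocytes also differed between the groups. The summed level of 9 neuronal markers, snt-1 left out, was 494 to 645 CPM in WT_CC and 5820 to 6762 CPM in Repro_CC. That of 7 coelomocyte markers was 15923 to 21348 CPM in WT_CC and 4309 to 6234 CPM in Repro_CC. Of those 9 neuronal markers, 6 were higher and 1 lower, the lower one being rgef-1, and 4 of the 7 coelomocyte markers were lower. Over all tested genes, 3.37% were called higher and 1.69% lower. The neuronal marker unc-119 was at 120 ± 21.1 and 77.6 ± 3.08 CPM, without overlap, and did not pass (edgeR adjusted p = 0.292). Among markers of pharyngeal muscle, intestine, hypodermis, glia and germline, 5, 8, 5, 2 and 4 genes were tested. None of them was called, beside 5.06% of all tested genes, and so few genes cannot show that these tissues were unchanged. Positive fold changes numbered 1, 6, 2, 2 and 2 in the same order. The summed CPM of unc-17, unc-47, eat-4 and cat-1, genes for transmitter transporters, was 7.82, 8.10 and 8.51 in WT_CC and 3.13, 18.8 and 0 in Repro_CC, which overlapped. In WT_CC and in Repro_CC library 2 most of it was unc-17, at 4.83 to 8.10 CPM in WT_CC and at 0, 15.9 and 0 CPM in Repro_CC. The 3.13 CPM of Repro_CC library 1 were all eat-4. Of 8 body wall muscle markers 7 were tested, and the troponin gene mup-2 was higher (166 ± 25.8 and 1024 ± 145 CPM), the myosin gene unc-54 lower (35947 ± 1104 and 19987 ± 4189 CPM) and 5 did not pass. Without these 2 genes the markers summed to 995, 849.6 and 568 CPM in WT_CC and 1010, 1854 and 757 CPM in Repro_CC, which overlapped, and the muscle regulator hlh-1 was at 0 in 4 libraries. Whether the level of unc-54 reflects muscle RNA was not tested. The che-1 transgene carries an unc-54 3' UTR, but it is present only in Repro_CC, the group with the lower unc-54 level. The 3' UTR of the GFP reporter is not given here. The marker myo-3 averaged only 87.8 CPM in WT_CC and 143 CPM in Repro_CC (edgeR adjusted p = 0.607). The part of transgene reads in the unc-54 counts was not tested. The part of these cell types in the levels of snt-1, snt-3 and snt-4 was not tested, and in bulk libraries fewer cells of a type and less RNA per cell cannot be told apart.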

How the data were processed

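Polyadenylated RNA of sorted coelomocytes was measured in 6 libraries, 3 per group. Estimated counts per gene, in whole numbers, make up the raw table that the authors deposited; the submitters' processing notes name Salmon 0.13.1, DESeq2 and WBcel235 without a role for each, and all of the 20 largest values end in 0, as estimates printed with few digits do. Multi-mapped reads of paralogs are shared out by such estimates, which can blur near-identical genes. The deposited normalized table was not used. Symbols came from a gene name table, and positions and lengths from the Ensembl annotation of WBcel235, which held 21714 of the 21882 identifiers.

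Groups were compared across all genes with edgeR 4.0.16 (R 4.3.3; TMM, default filter by group with minimum count 10 and total 15, robust quasi-likelihood test, Benjamini-Hochberg), tested first on simulated counts. The filter asks, in at least 3 libraries of any group, for the CPM that 10 counts have in a library of median size, and 6 of the 7 members passed. SE is the absolute log2 fold change divided by the square root of F, and is approximate. Shares used exact permutation tests. DESeq2 1.42.0, limma 3.58.1 (voom), RLE factors, adjusted deviances, other filters and leaving out libraries were alternatives. No libraries of a group matched within sampling noise (smallest chi-square over its degrees of freedom, 207). Named beside the members are, per list, up to 4 called genes per direction with the smallest adjusted p and the 2 most abundant others. The genes unc-64, cpx-1, cpx-2, unc-41, esyt-2, aex-3, pkc-1, nra-1, syd-1, unc-31 and plc-3 were added after their values were seen. Members and lists were chosen with earlier results of these data known. Intervals and floors cover counting error only.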

Additional observations from a re-analysis of the deposited data

How the results depend on the processing

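No paired analysis was possible because the labels give no replicate number that the groups share; library names run consecutively across the groups, which may mark pairs, but no label says so and no block was fitted. The rise of snt-4 passed the test under all 13 alternatives, with log2 fold changes from 2.76 to 2.99. Differences in paralog share moved by less than 1 SD between libraries, an SD that WT_CC library 2 itself widens: that of snt-4 ran from 2.78 to 12.6 percentage points as each library was omitted, and that of snt-1 from -6.98 to -1.85. Against 461 genes called over the whole table, DESeq2 called 1093, limma-voom 814, edgeR with adjusted deviances 1049 and edgeR without a count filter 729. Synaptotagmin calls numbered 1 to 2 over those fits that each omit 1 library, since snt-1 (log2 fold change 1.67 to 2.42) lost its call without any 1 of 5 libraries; the other 7 alternatives kept it past the threshold. The gene snt-3 passed with adjusted deviances (3.96). The sign of snt-6 turned with limma-voom (2.40) and lay between -1.62 and 9.34 over the fits that each omit 1 library, and no alternative called it. Leaving out each library gave 4 to 7 calls among other C2 domain genes and 1 to 3 among synaptic vesicle membrane genes. Among the latter DESeq2 called 4, beside 11.1% of all genes. Limma-voom called 1 gene of the exocyst list, beside 8.93% of all genes. The family sum without snt-4 was 52.6 CPM in WT_CC and 198 CPM in Repro_CC, an alternative chosen after seeing the data. A filter of 10 CPM in 3 libraries left snt-2, snt-3, snt-6 and snt-7 untested, and the planned search for CHE-1 motifs was not run. Counts of 0 for snt-2 were in WT_CC library 2 and Repro_CC library 1, the shallowest of their groups, while snt-5, snt-6 and snt-7 were also at 0 in deeper libraries.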

Other observations

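The genomic surroundings of the members were looked at after the values had been seen. The gene snt-4 lies 76.3 kb from che-1 on chromosome I. Of the 17 tested genes that lie between them, 1 was called higher, C55B7.11 (edgeR adjusted p = 0.00232), and 0 lower, with a median log2 fold change of 0.34, beside 3.37% of all tested genes called higher. C55B7.11 had no count in WT_CC and was at 27.04 ± 9.68 CPM in Repro_CC (SD, n = 3). Whether reads of the che-1 transgene enter the C55B7.11 counts was not tested, so this call too may say nothing about the locus. Within 100 kb of snt-1, 31 genes were tested and edgeR called 0, as it did for the 28 tested around snt-2. Around snt-3, 13 were tested, of which tank-1 was higher (log2 fold change 1.45) and Y75B7AL.2 lower (-1.80), beside 1.69% of all tested genes called lower. Around snt-4, 2 of 32 tested genes were higher, che-1 and C55B7.11. The Repro_CC strain carries a che-1 transgene, so the call of che-1 was given by the design and says nothing about this locus. Around snt-5, 1 of 12 was lower, again Y75B7AL.2. Around snt-6, 1 of 8 was higher (C08G5.7, log2 fold change 2.88), and around snt-7, 1 of 14 (ucr-2.2, 1.11).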
